A study of Homo sapiens with 8 samples.

Results

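Messenger RNA of 7 genes that set acidity and lactate export was followed across the 8 libraries of the study: the carbonic anhydrases CA9, CA12 and CA2, the monocarboxylate transporters SLC16A1 and SLC16A3, their chaperone BSG and the bicarbonate cotransporter SLC4A7. The genes were taken by symbol, and all 7 were among the 19583 rows of the expression table. Polyadenylated RNA had been sequenced from MDA-MB-231, a human breast cancer line of mesenchymal character. The 4 groups of 2 libraries were cells labelled shCHD4 at 1% O2, cells labelled shCHD4 at 20% O2, cells labelled shSC at 1% O2 and cells labelled shSC at 20% O2, each kept for 24 hours in DMEM with serum. The shCHD4 label names a short hairpin RNA against CHD4, the ATPase of the NuRD chromatin remodelling complex, and shSC names the control hairpin. How many clones or hairpin sequences stand behind each label is not stated. The study thus set low against ambient oxygen, and the CHD4 hairpin label against the control label.

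Cells that break glucose down to lactate must move acid outward to keep their cytosol near neutral. Carbonic anhydrases interconvert carbon dioxide with bicarbonate and protons, CA9 and CA12 at the cell surface and CA2 in the cytosol. SLC16A1 (MCT1) and SLC16A3 (MCT4) carry lactate together with a proton, both need BSG (basigin, CD147) to reach the plasma membrane, and SLC4A7 (NBCn1) brings in bicarbonate with sodium. CA9 and SLC16A3 are textbook targets of the hypoxia-inducible factors (HIFs), which build up when oxygen is scarce and bind a short DNA core motif, ACGTG or GCGTG.

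The 250 bases ahead of the transcription start are shown for CA9, CA12 and SLC16A3, which rose at 1% O2, and for BSG, the chaperone, which did not pass, each from a RefSeq window that holds the core motif (GRCh38.p14). They lie at chr9:35673678-35673927 on the plus strand for CA9, chr15:63381847-63382096 on the minus strand for CA12, chr17:82228792-82229041 on the plus strand for SLC16A3 and chr19:572346-572595 on the plus strand for BSG. Capitals mark ACGTG or GCGTG on the strand shown, or their reverse complements CACGT and CACGC.
CA9: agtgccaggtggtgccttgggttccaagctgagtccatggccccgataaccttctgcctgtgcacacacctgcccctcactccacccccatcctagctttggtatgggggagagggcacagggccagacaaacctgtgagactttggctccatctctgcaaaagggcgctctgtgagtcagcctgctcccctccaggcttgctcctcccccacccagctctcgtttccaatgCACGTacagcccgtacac
CA12: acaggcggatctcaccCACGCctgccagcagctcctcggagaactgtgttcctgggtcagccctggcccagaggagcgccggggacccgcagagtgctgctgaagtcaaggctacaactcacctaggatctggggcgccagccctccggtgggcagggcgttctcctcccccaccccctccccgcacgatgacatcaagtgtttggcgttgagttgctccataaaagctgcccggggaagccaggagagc
SLC16A3: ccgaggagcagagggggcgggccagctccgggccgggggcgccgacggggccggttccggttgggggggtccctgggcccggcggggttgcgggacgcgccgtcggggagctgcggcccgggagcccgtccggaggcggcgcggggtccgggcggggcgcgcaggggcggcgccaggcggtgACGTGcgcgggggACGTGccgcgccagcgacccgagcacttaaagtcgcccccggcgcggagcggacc
BSG: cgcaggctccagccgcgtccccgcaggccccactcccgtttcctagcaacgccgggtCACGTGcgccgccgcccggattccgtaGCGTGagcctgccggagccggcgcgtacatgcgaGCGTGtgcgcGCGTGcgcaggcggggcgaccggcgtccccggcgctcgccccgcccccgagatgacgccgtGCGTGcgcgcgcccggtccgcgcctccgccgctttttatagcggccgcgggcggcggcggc
The CA9 window held 1 ACGTG, on the reverse strand and close to the start. The CA12 window held 1 GCGTG, also on the reverse strand. The SLC16A3 window held 2 ACGTG, and of the other windows among the 5 listed for this gene, which held no ACGTG, 1 had 3 GCGTG and 1 had 1 GCGTG. In the BSG window the 2 ACGTG overlap as the palindrome CACGTG, and 4 GCGTG stand further downstream; the other of its 2 windows had neither motif. SLC4A7 had 2 windows, 1 with 2 GCGTG and 1 with neither. SLC16A1 and CA2 are named without a window. Of 35116 RefSeq windows of this length, 18.5% held ACGTG, 32.2% held GCGTG and 43.2% held either on 1 of the strands, so a match describes the letters of a window and says nothing of binding.

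Each library held between 24947627 and 31903585 reads assigned to genes, and values are given as normalised read counts, that is, reads scaled by library with no correction for the length of a gene. CHD4 RNA had 299 and 287 normalised read counts under the shCHD4 label at 1% O2, 293 and 305 under the shCHD4 label at 20% O2, 279.7 and 278 under shSC at 1% O2, and 299 and 298 under shSC at 20% O2. It was therefore not lower under the shCHD4 label, with limma log2 differences of 0.071 (adjusted p = 0.129, 1% O2) and 0.0018 (adjusted p = 0.968, 20% O2), and each difference below is one between libraries with these labels. Quantile normalization gave CHD4 a higher level in the shCHD4 libraries, by 0.23 at 1% O2 (limma adjusted p = 9.03e-05). At 20% O2 that difference was 0.11 (limma adjusted p = 0.0201). With median scaling it passed at 1% O2 alone (0.10, adjusted p = 0.0385). The 5 mesenchymal markers listed for this line, led by VIM, all averaged at least 1. Of the 8 luminal and epithelial markers 4 did, KRT8 (mean 168), ERBB2 (45.6), GATA3 (11.1) and EPCAM (5.81). ESR1, PGR and CDH1 had at most 8 reads in a library, and FOXA1 at most 13. The component that parted the labels held 88.8% of the variance and the one that parted the O2 levels 7.57%. The labels do not say whether the paired libraries came from different cultures, so p-values measure the library-to-library spread, possibly a technical one. In such bulk RNA, fewer cells with a transcript and less of it per cell cannot be told apart.

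**Figure D1:**
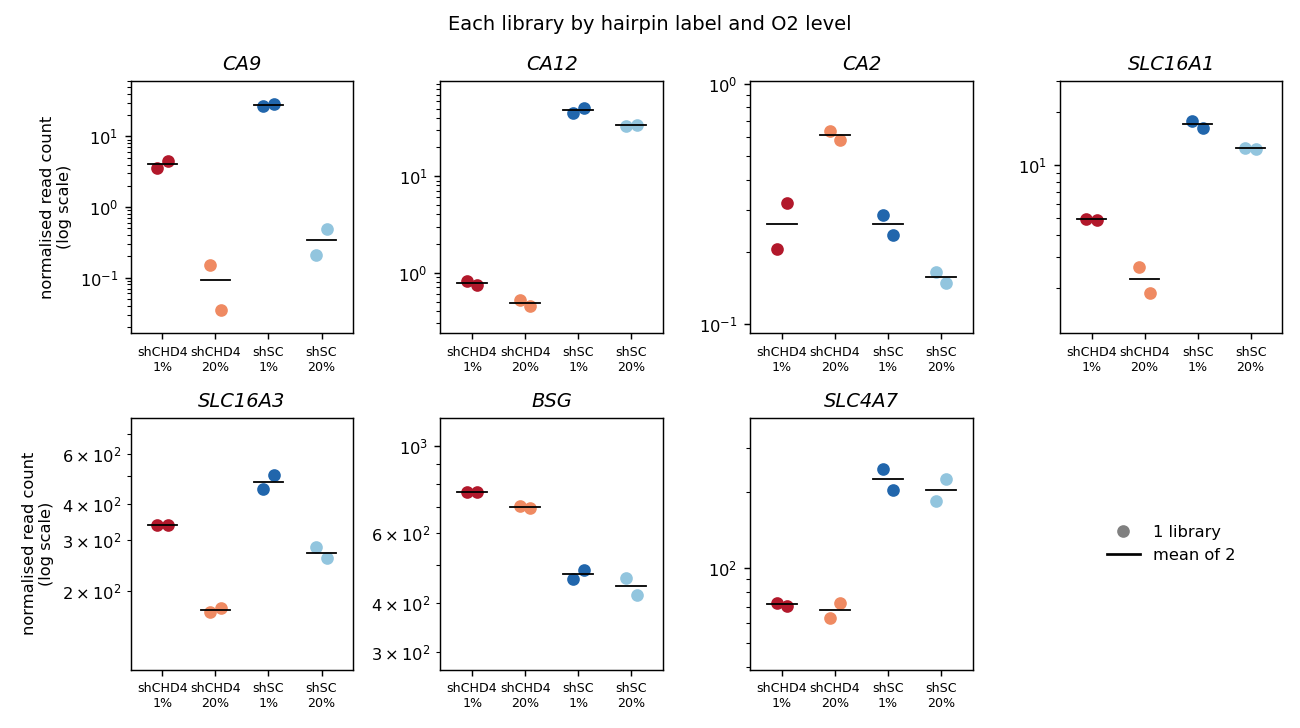
Normalised read count of each of the 7 genes in each library, on a log scale; points are libraries and bars are means of 2, with the shCHD4 label left of shSC and 1% left of 20% O2. CA9 is highest under shSC at 1% O2 (27.0 and 29.0), CA12 falls into a high pair of groups and a low pair by label, and BSG alone among the tested genes is higher under the shCHD4 label at both O2 levels.

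Low oxygen raised 4 of the 6 genes that could be tested under each label, and lowered none. CA9 changed most, SLC16A3 rose by log2 0.98 and 0.81 under the shCHD4 and shSC labels, SLC16A1 rose by 1.00 and 0.44 and CA12 by 0.38 and 0.50 in the same order, while BSG and SLC4A7 did not pass. With limma at an adjusted p of 0.05, 4 of 6 were higher at 1% O2 under the shCHD4 label, where 12.3% of the 12645 tested genes were, and 4 of 6 under shSC, where 17.4% were. The genes were chosen with earlier results of these data known, so these counts beside the shares are a description and not a test. CA2 is the gene left out of these counts, because its mean normalised read count was below the limit of 1. That limit was set on the mean over all 8 libraries. CA12 met it through the shSC libraries, and its values under the shCHD4 label, 0.448 to 0.824, all lay below it. CA12 is nevertheless among the 4 genes counted as higher under the shCHD4 label.

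CA9, the surface carbonic anhydrase with its active site outside the cell, had 3.54 and 4.49 normalised read counts under the shCHD4 label at 1% O2, 0.150 and 0.0345 under the shCHD4 label at 20% O2, 27.0 and 29.0 under shSC at 1% O2, and 0.207 and 0.483 under shSC at 20% O2. The 1% libraries lay far above the 20% libraries under both labels with no overlap, and at 20% O2 the gene was close to undetected. Summed over libraries, 230 reads at 1% O2 stood against 5 at 20% O2 under the shCHD4 label, a depth-corrected ratio of 44.6 with a 95% counting interval of 18.9 to 139. Under shSC 1617 reads stood against 18, a ratio of 79.5 with an interval of 50.1 to 134. These intervals cover counting error alone, and they overlap. On the log2(value + 0.5) scale CA9 rose by 2.93 under the shCHD4 label (95% interval 2.57 to 3.29, limma adjusted p = 4.02e-10) and by 5.09 under shSC (4.73 to 5.45, adjusted p = 1.15e-13).

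Whether the rise of CA9 differed between labels depended on how values near 0 were treated. The interaction, the O2 difference under the shCHD4 label minus that under shSC, was -2.16 (95% interval -2.67 to -1.66, limma adjusted p = 2.63e-05), and CA9 alone of the 6 genes passed, as lower, where 2.14% of all tested genes passed as lower, 2.21% as higher and 4.36% either way. With a pseudocount of 0.1 it was -1.57 (adjusted p = 0.0426). On the recovered whole reads it was -0.88 with edgeR (adjusted p = 0.665) and -0.84 with DESeq2 (adjusted p = 0.736), so the call did not hold in the count tests. At the level of CA9 at 20% O2 the added 0.5 exceeds every measured value, and the fitted rises moved with it: 2.19, 2.93 and 4.48 under the shCHD4 label, and 4.44, 5.09 and 6.05 under shSC, for pseudocounts of 1, 0.5 and 0.1. The rise of CA9 at 1% O2 under each label held in every alternative run, though its size moved. The lower level under the shCHD4 label at 1% O2, described with the label comparison, held in every run too.

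**Figure D2:**
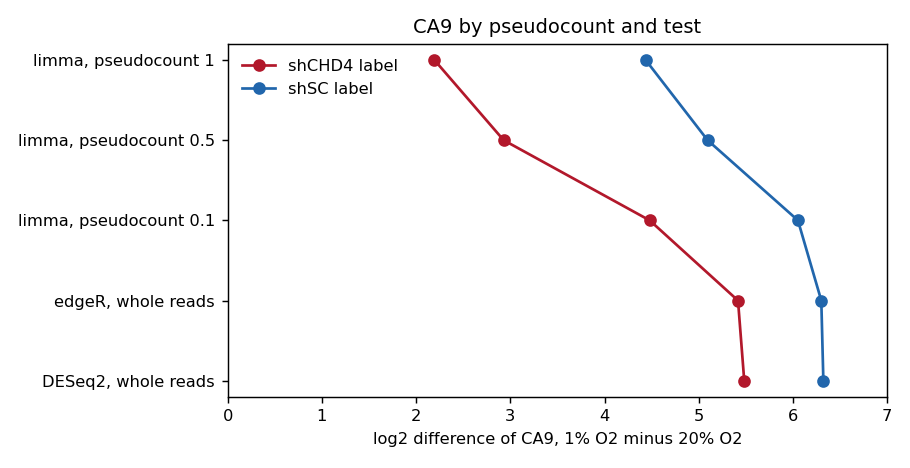
The log2 difference of CA9 between 1% and 20% O2 under 3 pseudocounts in limma and in 2 count tests on whole reads, for the shCHD4 and the shSC label; lines join the settings of a label. The gap between the labels is widest at a pseudocount of 1 (interaction -2.24) and narrowest in DESeq2 (-0.84).

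CA12, the second surface carbonic anhydrase and in breast tissue a gene known for its link to the estrogen receptor, had 0.824 and 0.742 normalised read counts under the shCHD4 label at 1% O2, 0.524 and 0.448 under the shCHD4 label at 20% O2, 45.0 and 50.9 under shSC at 1% O2, and 33.0 and 34.2 under shSC at 20% O2. Within each label the 1% libraries were the higher ones, without overlap, and the gap between labels was far wider than that between O2 levels. Under shSC the rise was 0.50 on the log2 scale (95% interval 0.28 to 0.73, limma adjusted p = 0.00136) and passed in 19 of 19 alternatives. Under the shCHD4 label it was 0.38 (0.16 to 0.61, adjusted p = 0.0162) and rested on 45 reads at 1% O2 against 27 at 20% O2, a ratio of 1.62 whose counting interval of 0.982 to 2.71 includes 1. That call held in 11 of 19 alternatives and was lost in edgeR (adjusted p = 0.138) and DESeq2 (0.185). Leaving out shCHD4 1% O2 replicate 1 (0.108) or shCHD4 20% O2 replicate 2 (0.082) also ended it, and its adjusted p lay between 0.0027 and 0.185 over the alternatives. The rises under the labels differed by -0.12 (95% interval -0.44 to 0.19, adjusted p = 0.73), an interval that leaves room for differences of either sign.

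SLC16A3, the transporter through which glycolytic cells release lactate, had 339 and 339 normalised read counts under the shCHD4 label at 1% O2, 169 and 175 under the shCHD4 label at 20% O2, 450.1 and 504 under shSC at 1% O2, and 284.5 and 259 under shSC at 20% O2. The 4 groups did not overlap, and their order from high to low was shSC at 1%, shCHD4 at 1%, shSC at 20% and shCHD4 at 20% O2. On the same scale, the rise at 1% O2 was 1.97-fold under the shCHD4 label (log2 0.98, 95% interval 0.86 to 1.09, limma adjusted p = 1.58e-10) and 1.75-fold under shSC (log2 0.81, 0.70 to 0.92, adjusted p = 2.02e-09). The difference between these rises was 0.17 (0.0077 to 0.33, adjusted p = 0.248) and did not pass. SLC16A3 shares 336 exon bases with CSNK1D, a casein kinase gene on the opposite strand, in the GENCODE annotation. Whether reads were counted by strand is not stated in what was used here, so reads of the shared bases cannot be assigned to either gene with certainty. CSNK1D itself ran from 121 to 127 under the shCHD4 label at 1% O2, 122 to 128 under the shCHD4 label at 20% O2, 153 to 154 under shSC at 1% O2 and 130.3 to 135 under shSC at 20% O2. The part of CSNK1D reads in the SLC16A3 values was not tested.

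SLC16A1, which can carry lactate in either direction, had 4.95 and 4.88 normalised read counts under the shCHD4 label at 1% O2, 2.62 and 1.86 under the shCHD4 label at 20% O2, 17.9 and 16.2 under shSC at 1% O2, and 12.5 and 12.4 under shSC at 20% O2. No 2 groups overlapped, and both shSC groups lay above both shCHD4 groups. The O2 rise was log2 1.00 under the shCHD4 label (95% interval 0.75 to 1.25, limma adjusted p = 9.24e-06) and 0.44 under shSC (0.19 to 0.69, adjusted p = 0.00817). The shSC call was lost without shSC 1% O2 replicate 1 (adjusted p = 0.0876) and with no filter on low values (0.0557). The rises differed by 0.56 (0.20 to 0.91, adjusted p = 0.0683), which did not pass. It was 0.69 in edgeR (adjusted p = 0.041) and 0.76 once shCHD4 20% O2 replicate 1 was left out (adjusted p = 0.0122), and its adjusted p lay between 0.0122 and 0.251 over the alternatives.

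BSG and SLC4A7 showed no O2 difference that passed. BSG, the glycoprotein chaperone of both transporters, had 762 and 762 normalised read counts under the shCHD4 label at 1% O2, 702 and 696 under the shCHD4 label at 20% O2, 460.4 and 484 under shSC at 1% O2, and 462 and 418 under shSC at 20% O2. Its 1% libraries were above its 20% libraries under the shCHD4 label, and overlapped them under shSC. The difference was 0.12 under the shCHD4 label (95% interval 0.025 to 0.22, limma adjusted p = 0.065) and 0.10 under shSC (0.0034 to 0.20, adjusted p = 0.1), and it passed under both labels when each library was centred on its median (adjusted p = 0.0424 and 0.042). It also passed under the shCHD4 label when either shSC 20% O2 library was left out (adjusted p = 0.0237 both times), in edgeR (0.0496) and with only the compared groups in the fit (0.0147), and under shSC without shSC 20% O2 replicate 1 (0.00962). BSG shares 140 exon bases with AC009005.1 on the opposite strand, for which the same limit on reads holds.

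SLC4A7, the bicarbonate importer, had 72.4 and 70.5 normalised read counts under the shCHD4 label at 1% O2, 62.8 and 72.4 under the shCHD4 label at 20% O2, 248 and 205 under shSC at 1% O2, and 185 and 225 under shSC at 20% O2. The O2 levels overlapped under both labels, and the labels did not overlap. The O2 difference was 0.082 under the shCHD4 label (95% interval -0.099 to 0.26, limma adjusted p = 0.522) and 0.14 under shSC (-0.038 to 0.32, adjusted p = 0.21). Under shSC it passed when shSC 1% O2 replicate 2 (0.28, adjusted p = 0.0365) or shSC 20% O2 replicate 2 (0.29, adjusted p = 0.0159) was left out.

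CA2, the abundant cytosolic carbonic anhydrase of red cells and kidney, was barely detected. It had 0.206 and 0.318 normalised read counts under the shCHD4 label at 1% O2, 0.636 and 0.586 under the shCHD4 label at 20% O2, 0.286 and 0.235 under shSC at 1% O2, and 0.166 and 0.149 under shSC at 20% O2. The shCHD4 libraries at 20% O2 stood above the rest, with 34 reads in all against 15 in the shCHD4 libraries at 1% O2, a 1% over 20% ratio of 0.428 with a counting interval of 0.217 to 0.808. Under shSC 15 reads at 1% O2 stood against 8 at 20% O2, a ratio of 1.66 (0.660 to 4.52). Without the filter on low values, limma gave an O2 difference of -0.55 under the shCHD4 label (adjusted p = 0.0103), 0.21 under shSC (adjusted p = 0.169) and an interaction of -0.76 (adjusted p = 0.0488), from libraries with 4 to 17 CA2 reads each.

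**Figure D3:**
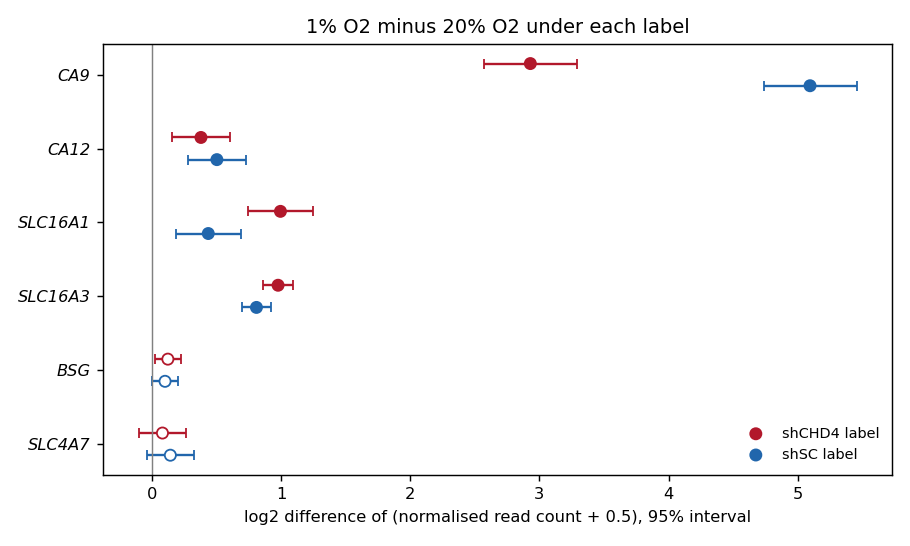
Log2 difference between 1% and 20% O2 with its 95% interval for the 6 tested genes, the shCHD4 label above shSC; filled points passed at an adjusted p under 0.05 and open points did not. CA9 stands apart at 2.93 and 5.09, SLC16A1 and SLC16A3 follow under the shCHD4 label and SLC16A3 and CA12 under shSC, and the open points of BSG and SLC4A7 lie near 0.

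Between the labels every tested gene differed, and 5 of the 6 were lower under the shCHD4 label. CA12 differed most, by log2 -5.24 at 1% and -5.11 at 20% O2, followed by CA9 at 1% O2 (-2.66) and SLC16A1 at 20% O2 (-2.25), while BSG was the 1 gene that was higher. At 1% O2 5 of 6 genes passed as lower, where 39.2% of all tested genes did, and 1 as higher, where 38.2% did. At 20% O2 the counts were again 5 lower, against 38.6% of all genes, and 1 higher, against 37%. CA9 is among these 5, although its values at 20% O2, 0.0345 to 0.483 from 1 to 13 reads, lay below the limit of 1. Its mean over all 8 libraries met that limit through the 1% O2 libraries, as that of CA12 did through the shSC libraries. Because 77.4% and 75.6% of all tested genes differed between the labels at 1% and 20% O2, passing this test does not set the genes apart. The O2 and label comparisons draw on the same 8 libraries.

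The surface carbonic anhydrases were both lower under the shCHD4 label. For CA12, 45 reads under the shCHD4 label stood against 2773 under shSC at 1% O2, 61.3-fold lower by reads (counting interval 45.7 to 84.2). At 20% O2 27 reads stood against 1719, 69.4-fold lower (47.5 to 106). On the scale with the pseudocount, which understates such differences, the CA12 difference was -5.24 at 1% O2 (limma adjusted p = 4.05e-18) and -5.11 at 20% O2, where the adjusted p was 5.23e-18. CA9 was 6.99-fold lower by reads at 1% O2 (6.08 to 8.06; log2 -2.66, limma adjusted p = 7.28e-11), which passed in 19 of 19 alternatives. At 20% O2 CA9 rested on 5 reads under the shCHD4 label against 18 under shSC, 3.93-fold lower by reads (1.40 to 13.5). That difference was -0.50 in limma (adjusted p = 0.0133) and passed in 14 of 19 alternatives; it did not pass when shCHD4 20% O2 replicate 2 (adjusted p = 0.108) or shSC 20% O2 replicate 2 (0.205) was left out. CA2 had 15 reads under either label at 1% O2, and 34 under the shCHD4 label against 8 under shSC at 20% O2, 3.90-fold higher by reads (1.77 to 9.75). Without the filter on low values limma gave CA2 a label difference of 0.76 at 20% O2 (adjusted p = 0.000137).

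The transporters and their chaperone moved apart. SLC16A1 was 3.24-fold lower under the shCHD4 label at 1% O2 (log2 -1.70, 95% interval -1.95 to -1.45, limma adjusted p = 2.61e-10) and 4.77-fold lower at 20% O2 (log2 -2.25, -2.50 to -2.0, adjusted p = 4.49e-12). These folds, and those of the other genes in this paragraph, are on the scale with the pseudocount. By reads SLC16A1 was 3.47-fold lower at 1% O2 (counting interval 3.03 to 3.97) and 5.59-fold lower at 20% O2 (4.61 to 6.84). SLC16A3 was 1.41-fold lower at 1% O2 (log2 -0.49, -0.60 to -0.38, adjusted p = 1.27e-07) and 1.58-fold lower at 20% O2 (log2 -0.66, -0.77 to -0.55, adjusted p = 2.39e-09). BSG, in contrast, was 1.61-fold higher at 1% O2 (log2 0.69, 0.59 to 0.79, adjusted p = 1.75e-10) and 1.59-fold higher at 20% O2 (log2 0.67, 0.57 to 0.77, adjusted p = 2.99e-10). SLC4A7 was 3.14-fold lower at 1% O2 (log2 -1.65, -1.83 to -1.47, adjusted p = 3.65e-12) and 3.01-fold lower at 20% O2 (log2 -1.59, -1.77 to -1.41, adjusted p = 6.73e-12). The differences of these 4 genes at both O2 levels passed with the same sign in all 19 alternatives, the quantile and median scalings included.

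**Figure D4:**
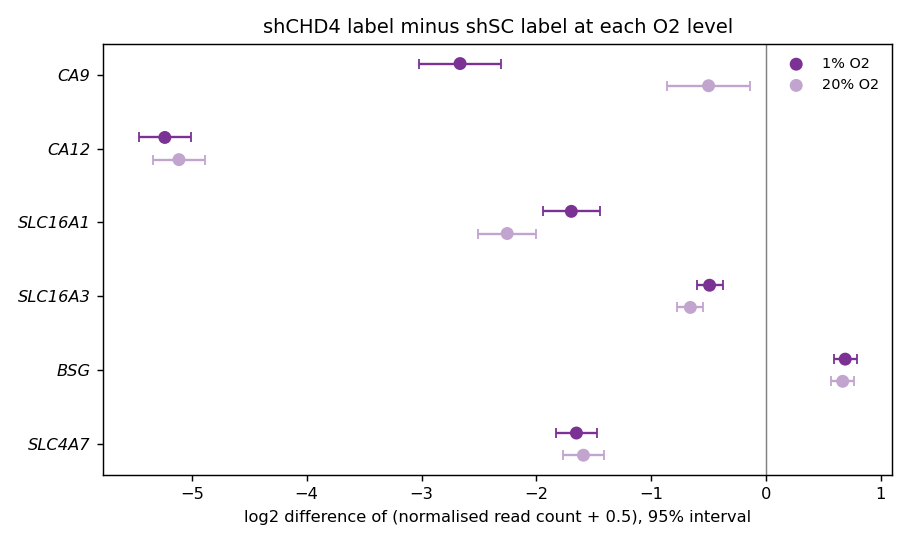
Log2 difference between the shCHD4 and the shSC label with its 95% interval for the 6 tested genes, 1% above 20% O2. CA12 lies at -5.24 and -5.11, BSG is the gene to the right of 0, and CA9 lies at -2.66 at 1% O2 and at -0.50 at 20% O2.

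Other measures also moved with the label. The summed level of the 8 luminal and epithelial markers, 4 of which averaged at least 1, ran from 280.3 to 283 under the shCHD4 label at 1% O2, 303 to 309.7 under the shCHD4 label at 20% O2, 138 to 165 under shSC at 1% O2 and 178 to 187 under shSC at 20% O2. KRT8 held most of this sum, at means of 214 and 239 under the shCHD4 label and 96.7 and 121 under shSC at 1% and 20% O2. ERBB2 was also higher under the shCHD4 label (53.7 and 52.3, against 36.8 and 39.5), whereas GATA3 (8.59 and 10.3, against 10.8 and 14.5) and EPCAM (4.85 and 4.50, against 6.93 and 6.95) were lower. The 5 mesenchymal markers summed to 10001 to 10071 under the shCHD4 label at 1% O2, 8457 to 8512 under the shCHD4 label at 20% O2, 8844 to 9223 under shSC at 1% O2 and 6584 to 6590 under shSC at 20% O2. VIM held most of this sum. Its means at 1% and 20% O2 were 6819 and 5509 under the shCHD4 label, and 5598 and 3497 under shSC. CAV1 was also higher under the shCHD4 label (799 and 677, against 378 and 365). CD44 (810 and 735, against 1413 and 1270) and ZEB1 (123 and 118, against 160 and 150) were lower. AXL stood at 1485 and 1447, against 1485 and 1306. The 7 fibroblast and endothelial markers, 3 of which averaged at least 1, summed to 38.1 to 39.0, 33.8 to 37.0, 26.4 to 27.5 and 24.8 to 26.4 in the same 4 groups. COL1A1 held most of this sum, at 32.4 and 29.2 under the shCHD4 label against 22.4 and 20.1 under shSC. PDGFRB was also higher (3.61 and 3.90, against 1.83 and 2.53), while PECAM1 had lower means (2.36 and 2.08, against 2.50 and 2.73). The 3 leukocyte markers in the table of 5 listed summed to between 1.31 and 2.48 in every library, with 1 averaging at least 1. PGR had no read in the 4 libraries labelled shCHD4 and 5 reads in all under shSC. The part of these differences in the label results was not tested.

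The position of the genes on the chromosomes was described with up to 20 tested neighbours on each side. Around SLC4A7 on chromosome 3, 32 of 40 neighbours were lower under the shCHD4 label at 1% O2 and 34 at 20% O2. There 3 and 2 were higher, and the median differences were -0.60 and -0.55. Around CA12 on chromosome 15, 24 and 26 of 40 neighbours were lower and 3 and 3 higher, with medians of -0.27 and -0.28. Around BSG on chromosome 19, 13 and 15 of 24 neighbours were higher and 6 and 3 lower, with medians of 0.16 and 0.28. Of all tested genes 39.2% and 38.6% were lower, and 38.2% and 37% higher, at 1% and 20% O2. The median neighbour of SLC4A7, CA12 and BSG thus differed on the same side as the gene itself, and by less. At 1% and 20% O2, 11 and 14 of 40 neighbours of CA9 on chromosome 9 were higher and 15 and 13 lower. For SLC16A1 on chromosome 1, 17 and 14 of 40 were higher and 11 and 10 lower. For SLC16A3 on chromosome 17, 11 and 11 of 31 were higher and 14 and 11 lower. The medians around CA9, SLC16A1 and SLC16A3 lay between -0.095 and 0.086. The part of such neighbourhoods in the label results was not tested.

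Per kilobase of exon, the scale on which genes can be set beside each other, BSG was the highest of the 7 genes in every group. In normalised read counts per kilobase, BSG stood at 334 under the shCHD4 label at 1% O2, 307 under the shCHD4 label at 20% O2, 207 under shSC at 1% O2 and 193 under shSC at 20% O2. SLC16A3 followed at 65.5, 33.2, 92.2 and 52.5 in the same groups. The ratio of SLC16A3 to SLC16A1 per kilobase was 61.8 and 62.6 under the shCHD4 label at 1% O2, 58.1 and 84.8 under the shCHD4 label at 20% O2, 22.7 and 28.0 under shSC at 1% O2, and 20.5 and 18.9 under shSC at 20% O2. SLC16A3 was thus the more abundant transporter RNA in every library, and the excess was larger in each shCHD4 library than in any shSC library. CA9 stood at 2.48, 0.0569, 17.3 and 0.213 per kilobase and CA12 at 0.122, 0.0758, 7.48 and 5.24 in the same order of groups. CA12 over CA9 was 0.0588 and 0.0417 under the shCHD4 label at 1% O2, 0.883 and 3.28 under the shCHD4 label at 20% O2, 0.420 and 0.443 under shSC at 1% O2, and 40.2 and 17.9 under shSC at 20% O2. Per kilobase, CA9 was the more abundant surface enzyme RNA in all 4 libraries at 1% O2, and CA12 in both shSC libraries at 20% O2. Under shSC at 1% O2 CA12 had more reads than CA9 (2773 against 1617). The order there rested on exon lengths of 1618 bases for CA9 and 6413 for CA12. The ratios under the shCHD4 label at 20% O2 rested on 4 and 1 CA9 reads. Lengths were all exon bases of a gene in GENCODE, which need not match the transcript present, and came from another build than the table's. Both limit these levels to rough ranks.

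Genes with the most similar pattern to each member over the 8 libraries were named by Pearson correlation of log2 values, as a description without a test, since the libraries share 4 groups. They were MAP2K1 (0.992) and DNAH11 (0.990) for CA9, HAS2 (0.9995) and OSBPL10 (0.999) for CA12, and ERRFI1 (0.995) and TXNIP (0.995) for SLC16A1. For SLC16A3 they were PFKP (0.996), a phosphofructokinase of glycolysis, and SLC2A1 (0.994), the main glucose importer. GPR115 (0.998) and CKB (0.998) followed BSG, and WDR36 (0.999) and MAP1B (0.999) followed SLC4A7.

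The wider set of pH genes, 90 in 7 lists, gave 52 tested genes. At 1% against 20% O2 these held 5 higher and 6 lower genes under the shCHD4 label (21.2% of them, against 23% of all tested genes) and 12 higher and 8 lower under shSC (38.5%, against 35.2%). Over all tested genes 12.3% were higher and 10.7% lower under the shCHD4 label, and 17.4% higher and 17.9% lower under shSC. Of the carbonic anhydrases apart from CA9, CA12 and CA2, none of 4 tested passed under the shCHD4 label and 1, the mitochondrial CA5B, passed as higher under shSC (log2 0.27, limma adjusted p = 0.0175), counts too small to set the family apart from those shares. Of 8 other monocarboxylate transporters and chaperones, 1 rose and 1 fell under either label. Under the shCHD4 label SLC16A12, a creatine transporter, rose by 0.70 and SLC16A6 fell by 0.41. Under shSC SLC16A13 rose by 0.52 and SLC16A10, a carrier of aromatic amino acids, fell by 0.67. The medians of the carbonic anhydrases were 0.063 under the shCHD4 label and 0.080 under shSC, and those of the transporters -0.052 and -0.045, beside -0.0037 and -0.011 for all tested genes. Single libraries decided several of these calls. That of CA5B was lost without shSC 1% O2 replicate 2 (adjusted p = 0.119) or shSC 20% O2 replicate 1 (0.14), and that of SLC16A10 without shSC 1% O2 replicate 2 (0.157). That of SLC16A12 was lost without shCHD4 1% O2 replicate 2 or either shCHD4 library at 20% O2 (adjusted p 0.0674 to 0.186), and that of SLC16A6 without any 1 of the 4 shCHD4 libraries (0.0808 to 0.211).

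SLC4A4, the sodium bicarbonate cotransporter NBCe1, had 9.34 and 8.73 normalised read counts under the shCHD4 label at 1% O2, 11.3 and 12.7 under the shCHD4 label at 20% O2, 3.72 and 3.76 under shSC at 1% O2, and 6.87 and 8.80 under shSC at 20% O2. It fell at 1% O2 under both labels, by 0.39 under the shCHD4 label (adjusted p = 0.0206) and by 0.97 under shSC (adjusted p = 3.95e-06), and the interaction was 0.58 (limma adjusted p = 0.0497, passed in 5 of 18 alternatives). SLC4A11 fell by 0.46 under shSC. Of 4 tested in this list, 1 passed as lower under the shCHD4 label and 2 under shSC, with none higher (10.7% and 17.9% of all tested genes were lower, 12.3% and 17.4% higher), and the list medians were -0.13 and -0.27. The SLC4A4 fall under the shCHD4 label did not pass without shCHD4 1% O2 replicate 1 (adjusted p = 0.0649), shCHD4 1% O2 replicate 2 (0.135) or shCHD4 20% O2 replicate 2 (0.154). Its interaction passed when shSC 20% O2 replicate 1 was left out (0.75, adjusted p = 0.00777), and not when any other single library was (0.0593 to 0.195).

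Sodium-proton exchangers trade a cytosolic proton for a sodium ion from outside. Of the 8 tested exchangers and adaptors 1 was higher and 1 lower at 1% O2 under the shCHD4 label, and 4 were higher and 2 lower under shSC. Of all tested genes 12.3% were higher and 10.7% lower under the shCHD4 label, and 17.4% and 17.9% under shSC. The adaptor SLC9A3R2 rose by 0.15 under the shCHD4 label (adjusted p = 0.0472) and by 0.43 under shSC (adjusted p = 8.45e-06), and SLC9A3R1 fell by 0.23 under the shCHD4 label. The list medians were 0.10 and 0.15. The rise of SLC9A3R2 under the shCHD4 label did not pass without any 1 of the 4 shCHD4 libraries (adjusted p 0.11 to 0.2), nor did the fall of SLC9A3R1 without either shCHD4 library at 1% O2 (0.0501 and 0.0686).

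Subunits of the V-ATPase, the pump that acidifies vesicles and in some cells the outside, passed in both directions. Of 21 tested, 2 rose and 2 fell at 1% O2 under the shCHD4 label, where 23% of all tested genes passed either way, and 4 rose and 2 fell under shSC, where 35.2% did, with median differences of -0.074 and -0.070 beside -0.0037 and -0.011 for all genes. ATP6V0A4 rose by 0.65 and ATP6V1D by 0.21 under shSC, and ATP6V0E2 fell by 0.27 and ATP6V0B by 0.21 under the shCHD4 label. Among 4 proton-sensing receptors and acid-gated channels, none passed under the shCHD4 label and 1 was higher at 1% O2 under shSC. The list medians of these receptors and channels were 0.16 and 0.11, and those of the lactate dehydrogenases 0.26 and 0.31, under the shCHD4 and shSC labels. The ATP6V0E2 call was lost without either shCHD4 library at 1% O2 or shCHD4 20% O2 replicate 2 (0.061 to 0.14), and the ATP6V0B call without shCHD4 1% O2 replicate 1 (0.163) or shCHD4 20% O2 replicate 1 (0.211). The lactate dehydrogenases split: LDHA, the subunit known for making lactate from pyruvate, rose by 1.26 under the shCHD4 label and 1.33 under shSC, and LDHB fell by 0.20 and 0.32 (limma adjusted p from 1.07e-13 to 0.00191 over these 4 values).

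**Figure D5:**
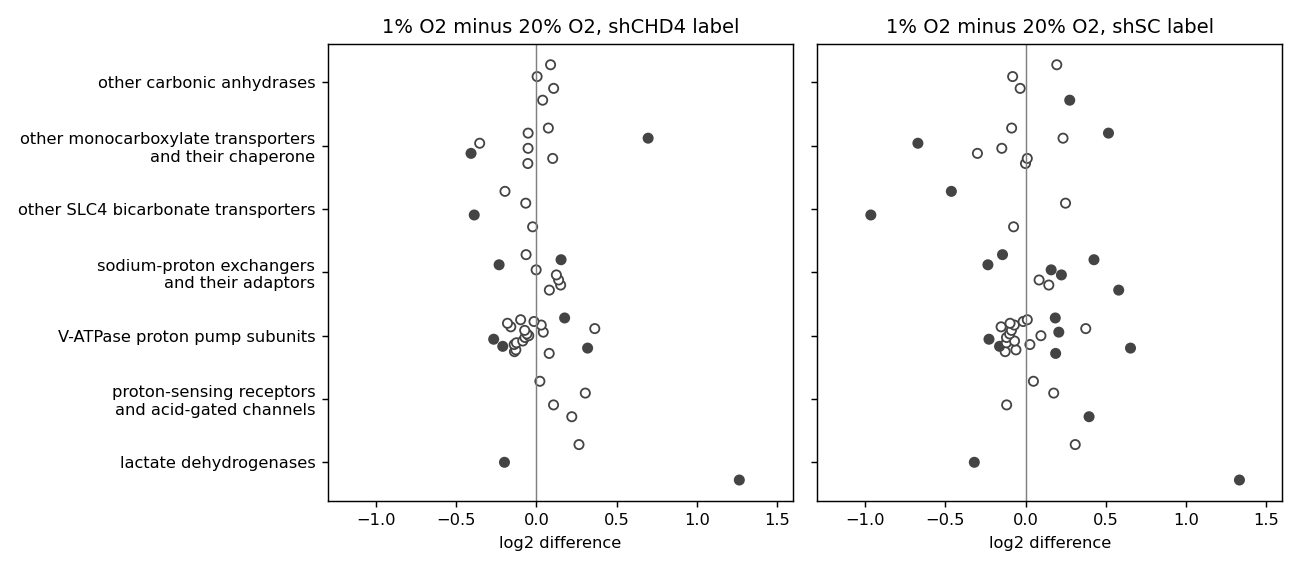
Log2 difference between 1% and 20% O2 for the 52 tested genes of 7 further pH lists, with the shCHD4 label on the left and shSC on the right; points are genes, spread vertically within a list for visibility, filled where the adjusted p was under 0.05. LDHA stands out at 1.26 and 1.33, and SLC4A4 is the lowest point under shSC at -0.97.

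Between the labels 45 of these 52 genes differed at 1% O2, 21 higher and 24 lower under the shCHD4 label (86.5%, against 77.4% of all tested genes), and 42 at 20% O2, 20 higher and 22 lower (80.8%, against 75.6%). Of all tested genes 38.2% were higher and 39.2% lower at 1% O2, and 37% and 38.6% at 20% O2. Of the 4 other carbonic anhydrases tested, 3 were higher and 1 lower at each O2 level. CA8, a member of the family without enzyme activity, was higher under the shCHD4 label by 1.80 at 1% O2 and 1.66 at 20% O2, and CA13, a cytosolic form, was lower by log2 -0.67 at 1% O2. Of 8 monocarboxylate transporters and chaperones 6 were lower and 2 higher at each O2 level, among the lower ones SLC16A13 (log2 -1.81 at 1% O2 and -1.24 at 20% O2). At 1% and 20% O2 the medians were 0.55 and 0.63 for the carbonic anhydrases and -0.35 and -0.42 for the transporters, beside -0.0067 and -0.0091 for all tested genes.

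SLC4A4 was higher under the shCHD4 label by 1.17 at 1% O2 and 0.59 at 20% O2, and SLC4A2, an anion exchanger, by 0.23 and 0.18, the opposite side from SLC4A7. The 4 tested SLC4 genes apart from SLC4A7 counted 3 higher and 1 lower at 1% O2 and 2 higher and 0 lower at 20% O2 (medians 0.28 and 0.12). The 8 exchangers and adaptors counted 3 higher and 3 lower at both (medians 0.025 and -0.042). The shares over all tested genes were 38.2% higher and 39.2% lower at 1% O2, and 37% and 38.6% at 20% O2. Among the sodium-proton exchangers SLC9A7 fell by 1.27 at 1% O2 and 1.17 at 20% O2, while the adaptor SLC9A3R2 was higher by 1.03 at 20% O2. V-ATPase subunits went both ways. Of 21 tested, 8 were higher and 8 lower at 1% O2, and 8 higher and 7 lower at 20% O2, near those shares. ATP6V0D1 was higher by 1.05 and 1.06 and ATP6V1B2 lower by log2 -0.99 and -0.84. ASIC1, an acid-gated channel, was lower by log2 -1.46 at 20% O2 and ASIC3 higher by 1.07 at 1% O2, with 3 of 4 proton-sensing receptors and acid-gated channels lower and 1 higher at both O2 levels (medians -1.09 and -1.19). Among lactate dehydrogenases LDHB fell by 0.30 at 20% O2, and LDHD, which acts on D-lactate, was higher by 0.59, a call lost without shCHD4 20% O2 replicate 2 (adjusted p = 0.0935). At 1% O2 LDHA was lower by log2 -0.19 and LDHB by -0.18, but with quantile normalization LDHA was at 0 and LDHB at 0.011. The limma adjusted p-values of the differences named here ran up to 0.00445.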

How the data were processed

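Per the submitters' processing notes, the authors used bcl2fastq 2.17, FastQC 0.11.2, TopHat, Picard 1.127, featureCounts and edgeR on the human build hg19; no source used here names the gene annotation or the strand setting. Although the deposited table carries FPKM in its name, it holds a signal that the authors scaled by library, with no length correction. All entries of a library, 100% of them, lay within 0.01 reads of a multiple of the value of 1 read. The deposited values summed to 975172 to 1076118 per library, and dividing them by that value recovered 24947627 to 31903585 reads. The tests had been chosen for FPKM, with edgeR in place of limma if the table held raw counts. The table held scaled values, and limma was kept, with edgeR on the recovered reads as an alternative. That choice decides the interaction calls of 2 members. CA9 passed in limma (adjusted p = 2.63e-05) and not in edgeR (0.665), and SLC16A1 in edgeR (0.041) and not in limma (0.0683).

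Of 19583 rows, the 12645 whose mean reached 1 were tested with limma 3.58.1 (R 4.3.3) on log2(value + 0.5). All 4 group means shared 1 fit, with a variance trend, 4 residual degrees of freedom and 13.9 prior ones; tests were two-sided, and p-values were adjusted by Benjamini-Hochberg over all tested genes at 0.05. The scale understates changes of low genes. Count tests on the recovered reads, edgeR 4.0.16 (quasi-likelihood, TMM) and DESeq2 1.42.0, were alternatives, and the code was tested on simulated data. At 1% against 20% O2 limma called 2903 genes under the shCHD4 label and 4456 under shSC, edgeR 2959 and 4490, and DESeq2 1977 and 3347. With 2 libraries against 2, exact permutation reaches no p under 0.33, so it was left aside. Ratios of summed reads carry exact 95% counting intervals. The chi-square per degree of freedom between replicates was 2.07 to 4.29, above sampling noise. Among the rows were 27 names turned into dates and 4 repeated names.

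The 7 members and the gene lists were chosen with earlier results of these data known. Named beyond the members were CHD4 and, per list and comparison, up to 2 genes that passed with the smallest p, some of which are not reported here. Where no gene of a list passed, the 1 with the highest mean was named or the list was given as a count. Also named were the 2 genes most correlated with each member, and CSNK1D, chosen after its values were seen. Promoter windows, from RefSeq on GRCh38.p14, were found for 5 of the 7 members, 11 windows in all.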

Additional observations from a re-analysis of the deposited data

Results flagged for a closer look

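Of the 52 tested genes of the pH lists, 4 passed the interaction term in limma (7.69%, against 4.36% of all tested genes), and 3 of them are described here with CA9, the 1 member that passed. The term is the difference between 1% and 20% O2 under the shCHD4 label minus that under shSC. For CA9 it was -2.16 (adjusted p = 2.63e-05), a call that the count tests did not make. For SLC16A13 it was -0.57 (adjusted p = 0.046), with 3.38 ± 0.13 normalised read counts at 1% O2 and 3.53 ± 0.36 at 20% O2 under the shCHD4 label, beside 13.1 ± 1.2 and 9.0 ± 0.49 under shSC (SD, n = 2 each), and it passed in 6 of 18 alternatives. For SLC4A4 it was 0.58 (adjusted p = 0.0497), and it passed in 5 of 18 alternatives. For SLC9A3R2 it was -0.27 (adjusted p = 0.0492), with 238 ± 0.55 at 1% O2 and 214 ± 2.3 at 20% O2 under the shCHD4 label, beside 140.2 ± 11 and 104 ± 6.6 under shSC, and it passed in 7 of 18 alternatives. Leaving out single libraries ended the SLC16A13 call for 6 of 8 libraries (adjusted p 0.0605 to 0.172), the SLC4A4 call for 7 (0.0593 to 0.195) and the SLC9A3R2 call for 6 (0.108 to 0.172).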

How the results depend on the processing

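Over 564 values of the 30 results of the 6 tested genes under the alternatives, 536 kept their direction and side of the threshold, 17 lost the call and 11 gained it. The number of these genes that passed the interaction was 2 with no filter on low values, where CA2 entered, and 0 in DESeq2, and ran from 1 to 2 when a library was left out; edgeR also gave 1, which was SLC16A1 and not CA9. Over all genes, 1% against 20% O2 under the shCHD4 label gave 1920 calls with no filter and 1815 with no variance trend, against 2903, and 1326 to 3468 when a library was left out, the fewest when shCHD4 1% O2 replicate 1 was left out, 1451 for shCHD4 1% O2 replicate 2 and 1344 for shCHD4 20% O2 replicate 1. The interaction gave 155 with no filter and 155 with no variance trend, against 551, and 245 to 994 when a library was left out, fewest without shCHD4 1% O2 replicate 2 and most without shSC 20% O2 replicate 1. The cause was not tested. LDHB between labels at 1% O2 reversed to 0.011 with quantile normalization. A fit that leaves out a library assumes that the lone library of its group varies like the other groups.

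With the replicate number as a block, the counts over all genes were 2795 and 4370 for O2 under the shCHD4 and shSC labels, 9755 and 9536 for the labels at 1% and 20% O2, and 536 for the interaction, and the members that passed numbered 4, 4, 6, 6 and 1 as without it. Deviations of same-numbered libraries correlated at -0.20 and -0.11 for O2 under the shCHD4 and shSC labels, and at 0.065 and 0.19 for the labels at 1% and 20% O2, so the numbers were not taken to pair libraries. A crossed pairing, added after these correlations were seen, gave 3463 and 4922 calls for O2 under the shCHD4 and shSC labels, with 5 and 6 members, and 848 for the interaction with 2 members.

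Depth limits CA9 at 20% O2, CA12 under the shCHD4 label and CA2 in every group.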
